A study of Mus musculus with 13 samples.

Results

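Pou5f1, Sox2 and Sall4, with Lin28a, Utf1, Dppa4, Dppa5a and Trim28, form a group of 8 genes of the core pluripotency network, taken by gene symbol from the 24421 genes of the RNA-seq count tables. All 8 were present in both tables and passed the filter on low counts. The tables compare transcript levels in mouse ES cells (mESCs) with and without induction of CTCF S224E, a CTCF with 1 serine replaced by a glutamate that mimics phosphorylation. The cells were F1-2.1, a female mESC line from a cross of the strains CAST/Ei and 129/Sv/Jae, and all 4 libraries came from a single clone (A2) with a Tet-on transgene for FLAG-tagged CTCF S224E and EGFP. The +dox cells received 1 μg/mL doxycycline (dox) for 6 days and the −dox cells none, with 2 libraries of polyadenylated RNA per condition. Both conditions kept the endogenous Ctcf genes and were grown in serum and LIF over γ-irradiated fibroblast feeder cells. Every RNA library carried the S224E transgene, and none came from cells with a wild-type CTCF transgene. What dox, EGFP, added CTCF and the S224E substitution each do therefore cannot be told apart.

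mESCs self-renew while keeping the ability to form all lineages of the embryo. Pou5f1 (also called Oct4) encodes a POU-domain transcription factor and Sox2 an HMG-box transcription factor, and the pair bind side by side on composite Sox-Oct elements near many genes of the pluripotent state, their own included. Sall4 encodes a zinc-finger transcription factor that binds the NuRD co-repressor complex. Utf1 encodes a chromatin-associated protein and is a classical target of Oct4 and Sox2. Dppa4 encodes a SAP-domain protein that works with its neighbour Dppa2, and Dppa5a a KH-domain RNA-binding protein. Lin28a encodes an RNA-binding protein that blocks the maturation of let-7 miRNAs. Trim28 (also called KAP1) encodes the co-repressor that KRAB zinc-finger proteins use to bring the histone methyltransferase Setdb1 to retroelements, and unlike most of the others it is expressed in nearly all cells.

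The genes lie on 7 chromosomes of mm9, the build of the counts. Pou5f1 is at chr17:35642977-35647722 on the plus strand with 5 exons, and Sox2 is a gene of 1 exon at chr3:34548917-34551382 on the plus strand. Sall4 is at chr2:168573832-168592701 and Lin28a at chr4:133559245-133574731, both on the minus strand with 4 exons each. Utf1 (chr7:147129755-147131011, plus strand, 2 exons) and Trim28 (chr7:13609501-13616381, plus strand, 17 exons) share chromosome 7. Dppa4 is at chr16:48283848-48294405 on the plus strand with 7 exons, and Dppa5a is at chr9:78214861-78216006 on the minus strand with 3 exons. In the GENCODE annotation of NCBIM37, exons of Sall4 and Lin28a each overlap another annotated gene on the opposite strand, Gm14261 and Gm13061. Whether the counting used the strand is not given in the sources used here, so reads from these pairs cannot be told apart.

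Binding letters of Oct4 and Sox2 were looked for in the mm9 sequence within 5000 bases on each side of each start site. The octamer ATGCAAAT, searched on both strands, was in the windows of 4 of the 8 genes and in 42.4% of the windows of all genes. A composite of Sox letters (TTGTN) directly followed by Oct letters (ATGCNAA) was in the window of 1 of the 8, Dppa4, and in 2.03% of all windows. Its stricter form, with ATGCAAA as the Oct letters, was in 0 of the 8 and in 0.727% of all windows, and holds the octamer where a T follows. The composite match and 3 of the octamer matches are shown, 30 bases each from mm9, with the match in capitals, because Oct4 and Sox2 are themselves among the genes measured. They are a description of these letters and not of binding. Elements that depart from these letters were not looked for, so a window without a match can still hold a composite element.
Dppa4 composite, chr16:48283760-48283789, minus strand, 79 bases upstream of the start site: tcaacaaaaTTGTGATGCTAAaatctcctt
Utf1 octamer, chr7:147128851-147128880, minus strand, 893 bases upstream: gttgtttatctATGCAAATtgtagacccat
Pou5f1 octamer, chr17:35646917-35646946, plus strand, in the coding sequence: cctgcccagatATGCAAATcggagaccctg
Lin28a octamer, chr4:133572457-133572486, plus strand, in an intron: atcattcacatATGCAAATgagatgggggg

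The libraries held between 22899107 and 30206085 counted reads. All 13 markers chosen for ES cells were detected in every library, and their summed level was 4596 and 5466 CPM (reads per 1000000 counted, scaled by TMM) in the +dox libraries and 4493 and 4853 CPM in the −dox libraries. Fibroblast genes, as in the feeders, stood apart in +dox replicate 1. The summed level of 16 fibroblast markers was 922 and 362 CPM with dox and 286 in each −dox library, and none was at 0. Of the 16, 12 were higher in both +dox than in both −dox libraries, which held for 23.3% of all genes tested. Of 11 primitive streak markers, 10 were lower in both +dox than in both −dox libraries, which held for 23.7% of all genes tested. Their sums were 40.6 and 40.4 CPM with dox and 172 and 201 CPM without. The summed level of 10 neural progenitor markers was 325 and 336 CPM with dox and 299 and 242 CPM without. Of these, 5 were higher and 0 lower in both +dox than in both −dox libraries. The most abundant, Nes, overlapped between conditions. At an adjusted p-value under 0.01 edgeR called 1 of the 10, Pax6 (log2 fold change 1.09), against 0.599% of all genes. The summed level of 9 endoderm markers was 41.4 and 45.3 CPM with dox and 57.9 and 64.2 CPM without. Ttr was at 0 throughout, and of the 8 tested 5 were lower and 1 higher in both +dox than in both −dox libraries. These shares were 23.7% and 23.3% over all genes tested. The median log2 fold change of the 8 was -0.98. Dab2, the most abundant of them, was the higher gene, with 27.0 and 30 CPM with dox and 25.3 and 23.7 CPM without. Of 7 trophoblast markers (25.9 and 19.1 CPM with dox, 15.1 and 20.9 CPM without) Tpbpa was at 0. The part of these cell types in the values of the 8 genes was not tested. In RNA from mixed cells, fewer cells of a type and less RNA per cell cannot be told apart.

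Per length of transcript, Pou5f1 had the highest level of the 8 genes and Dppa4 the lowest. On the scale of CPM per kilobase, the mean of the 4 libraries was 811 for Pou5f1, 696.5 for Dppa5a, 663 for Trim28, 622 for Utf1, 314 for Sox2, 135.5 for Sall4, 92.3 for Lin28a and 52.4 for Dppa4. Pou5f1 ranked 16th and Dppa4 1917th among the 24421 genes, and all 8 were within the top 7.85%. Pou5f1, Dppa5a, Trim28 and Utf1 had ranges over the libraries that overlapped from each gene to the next, and Dppa5a was above Trim28 in 2 of 4 libraries. From Utf1 downwards the ranges were apart at each step, and all 4 libraries had the same order. The step from Utf1 to Sox2 was 1.98-fold, that from Sox2 to Sall4 2.32-fold, that from Sall4 to Lin28a 1.47-fold and that from Lin28a to Dppa4 1.76-fold. These levels depend on how much of a gene can take unique reads. Of the stretches of 50 bases (the read length) within the exons of each gene, 64.6% for Dppa5a, 49.0% for Dppa4, 31.7% for Pou5f1 and 11.3% for Lin28a had an exact copy elsewhere in mm9, against 0.0615% for Sall4 and 0% for Sox2, Utf1 and Trim28. Since the authors counted unique reads, the levels of Dppa5a, Dppa4 and Pou5f1 against the others are uncertain.

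**Figure D1:**
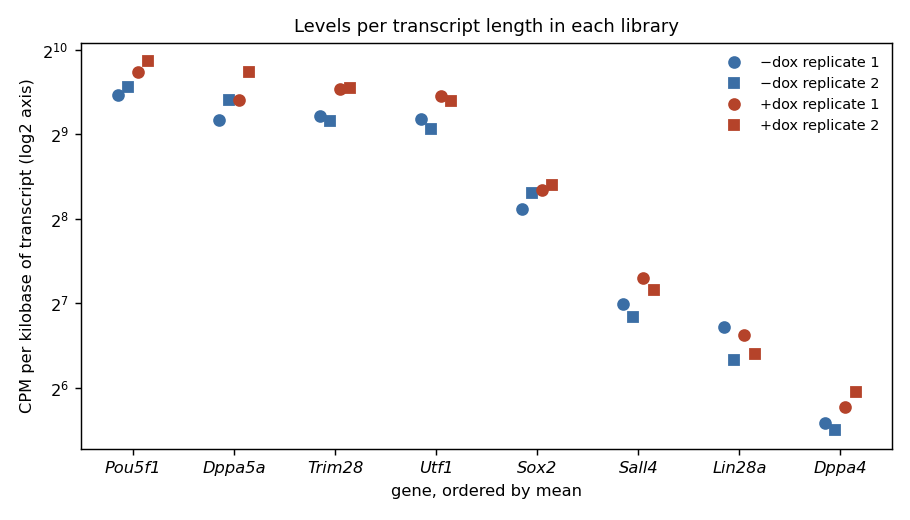
Level of each gene in CPM per kilobase of transcript (log2 axis) in the 4 libraries, with circles for replicate 1 and squares for replicate 2. Pou5f1, Dppa5a, Trim28 and Utf1 lie between 535.5 and 932, and the other genes step down to Dppa4 at 45.2 to 61.9.

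In the comparison of +dox with −dox cells, none of the 8 genes was differentially expressed (DE) at an adjusted p-value under 0.01 in edgeR's quasi-likelihood test, the threshold used for the 20044 genes tested, of which 0.599% were called (0.0798% higher and 0.519% lower with dox). At an unadjusted p-value under 0.05 there were 6 of 8 genes (Pou5f1, Sall4, Utf1, Dppa4, Dppa5a and Trim28), all higher with dox. This p-value was met by 17.8% of all genes (8.48% higher and 9.31% lower with dox) and by 27.1% of the genes of at least 100 CPM. DESeq2, the tool named in the study's methods, called 1 of the 8, Trim28, and 1.87% of all genes. At an adjusted p-value under 0.05 edgeR passed 1 of the 8 (Trim28) and 2.86% of all genes, and DESeq2 passed 2 (Utf1 and Trim28) and 3.88% of all genes. The log2 fold changes ran from -0.03 for Lin28a to 0.35 for Trim28, with a median of 0.30, where the median over all genes tested was 0.01 and that over the 2809 genes of at least 100 CPM was 0.06. For 6 of the 8 genes both +dox libraries were above both −dox libraries, which held for 23.3% of all genes and for 38.9% of those of at least 100 CPM. In 7 of the 8 the +dox library was above the −dox library in both replicates, which held for 30.5% of all genes and 48.7% of those of at least 100 CPM. With 2 libraries per condition, an exact permutation test of a single gene cannot go below p = 0.333, so p-values come only from the fit over all genes. The methods describe 2 biological replicates per condition.

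**Figure D2:**
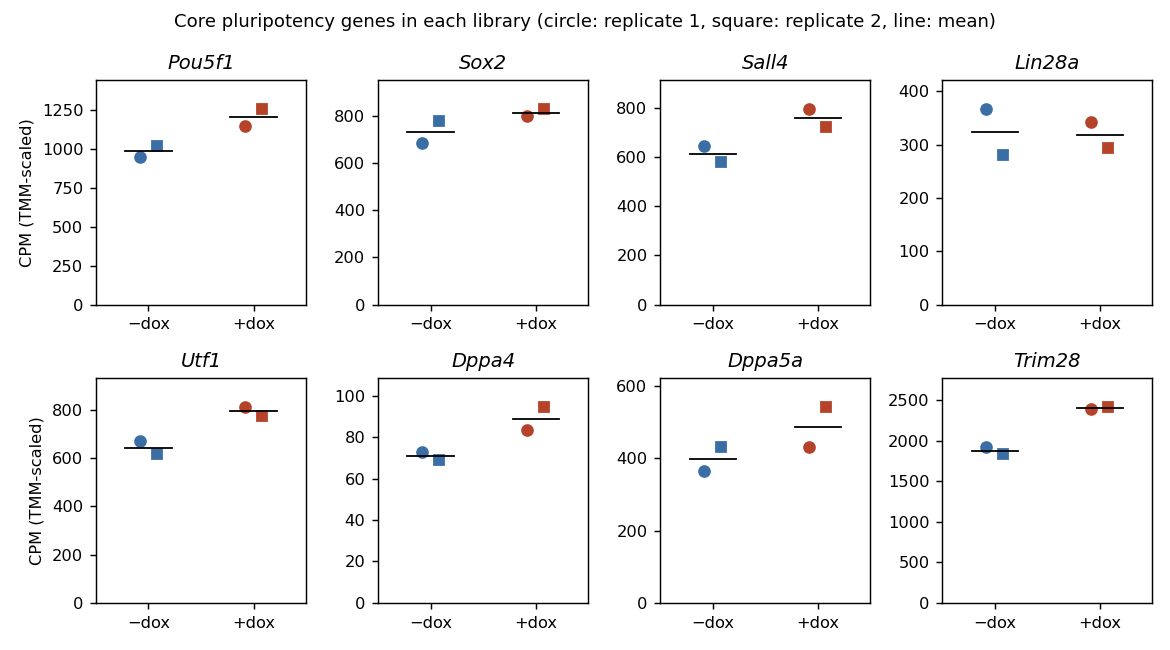
CPM of each gene in the −dox and +dox libraries, with circles for replicate 1, squares for replicate 2 and a line at the mean of each condition; all axes start at 0. In 6 panels both +dox points lie above both −dox points, and in those of Lin28a and Dppa5a the conditions overlap.

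Pou5f1 had 25837 and 28635 reads in +dox replicates 1 and 2 and 28994 and 25491 reads in −dox replicates 1 and 2. Scaled to library size, this was 1148 and 1254 CPM with dox and 949 and 1016 CPM without. Both +dox libraries were above both −dox libraries, with means of 1201 ± 75.2 CPM (SD, n = 2) and 983 ± 47.1 CPM (SD, n = 2). This is a log2 fold change of 0.29 ± 0.08 (SE, 1.22-fold), with 0.27 in replicate 1 and 0.30 in replicate 2. For Pou5f1 the adjusted p was 0.0872 from edgeR and 0.0584 from DESeq2. The difference was thus larger than the spread between replicates but did not pass the test over all genes. In counting error alone, the smallest count of 25491 reads has a relative error of 0.626%, well below the 6.26% by which the +dox replicates varied.

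Sox2, the partner of Oct4 on composite elements, differed less between the conditions. It had 799 and 829.7 CPM with dox and 684 and 780.4 CPM without, so that the lower +dox library was just above the higher −dox library. On average, cells had 814.5 ± 21.6 CPM (SD, n = 2) after dox and 732 ± 68.4 CPM (SD, n = 2) in its absence. Its log2 fold change was 0.15 ± 0.09 (SE, edgeR adjusted p = 0.408), with 0.23 in replicate 1 and 0.09 in replicate 2. The 95% interval ran from -0.04 to 0.35, so neither no difference nor a difference as large as that of Pou5f1 lies outside it. When libraries were scaled by their total counts the conditions overlapped. Sox2 is also expressed in neural progenitors, whose markers had a higher sum in both +dox libraries, though only 5 of the 10 were each higher in both. Their part in the Sox2 values was not tested.

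Sall4, the zinc-finger partner of the network, had 797 and 722 CPM with dox and 647 and 579.8 CPM without. The conditions did not overlap, and within each the first replicate was the higher. Means were 759 ± 52.8 CPM (SD, n = 2) after dox and 613.5 ± 47.6 CPM (SD, n = 2) without, and the log2 fold change was 0.31 ± 0.09 (SE, 1.24-fold, edgeR adjusted p = 0.0935), with 0.30 in replicate 1 and 0.32 in replicate 2. Utf1, the target of Oct4 and Sox2, was close to it, with 811 and 777.4 CPM with dox and 670 and 619 CPM without. Its log2 fold change was 0.30 ± 0.08 (SE, 1.23-fold), and both tools left it above the threshold (adjusted p = 0.078 from edgeR, 0.0407 from DESeq2). Replicate 1 gave Utf1 0.28 and replicate 2 gave it 0.33.

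Of the Dppa genes, Dppa5a varied more between replicates than Dppa4. Dppa4 had 83.5 and 94.4 CPM with dox and 72.9 and 68.9 CPM without, and its smallest count, 1729 reads, was the lowest of the 8 genes. The conditions did not overlap, and the log2 fold change was 0.33 ± 0.11 (SE, edgeR adjusted p = 0.127), with 0.20 in replicate 1 and 0.45 in replicate 2. Dppa5a had 430.7 and 540.5 CPM with dox and 364 and 431.2 CPM without. Here +dox replicate 1 was just below −dox replicate 2, so the conditions overlapped, although they did not under DESeq2's size factors. Means were 486 ± 77.6 CPM (SD, n = 2) after dox and 398 ± 47.6 CPM (SD, n = 2) without, and the log2 fold change was 0.29 ± 0.12 (SE, edgeR adjusted p = 0.209).

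Lin28a, the inhibitor of let-7 maturation, had no common direction in the replicates. It had 342 and 294 CPM with dox and 367 and 280.4 CPM without. The −dox libraries enclosed both +dox libraries, and the spread between −dox replicates, 18.9% of their mean, was the widest among the 8 genes. The log2 fold change was -0.03 ± 0.12 (SE, edgeR adjusted p = 0.937), with -0.10 in replicate 1 and 0.07 in replicate 2 and a 95% interval from -0.30 to 0.24. Any difference within these bounds is compatible with the values of these libraries.

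Trim28, the co-repressor of retroelements, had the most reads and the tightest values. It had 2387 and 2409 CPM with dox and 1918 and 1837 CPM without, or 2398 ± 15.55 CPM (SD, n = 2) and 1878 ± 57.3 CPM (SD, n = 2). The +dox libraries differed from each other by far less than they did from either −dox library. The log2 fold change was 0.35 ± 0.07 (SE, 1.28-fold) with a 95% interval from 0.19 to 0.52, and replicates 1 and 2 gave 0.32 and 0.39. At the threshold of 0.01 edgeR did not call it (adjusted p = 0.0296) and DESeq2 did (adjusted p = 0.00472). A gene of at least 1 CPM had a larger log2 fold change than Trim28 in 10.0% of cases, which is 1391 genes.

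**Figure D3:**
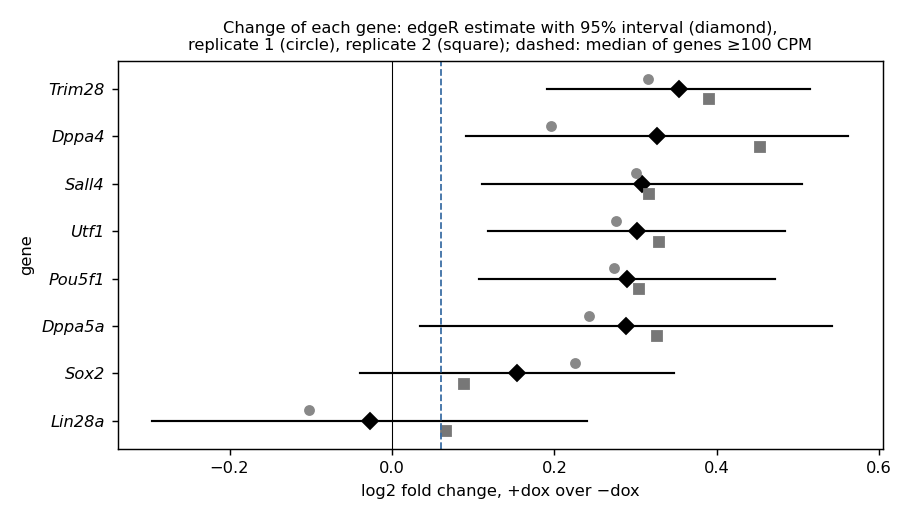
Log2 fold change of +dox over −dox for each gene, with the edgeR estimate (diamond), its 95% interval (line) and the values of replicate 1 (circle) and replicate 2 (square). The dashed line is the median of genes of at least 100 CPM, 0.06, and the intervals of all but Sox2 and Lin28a lie above 0.

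**Figure D4:**
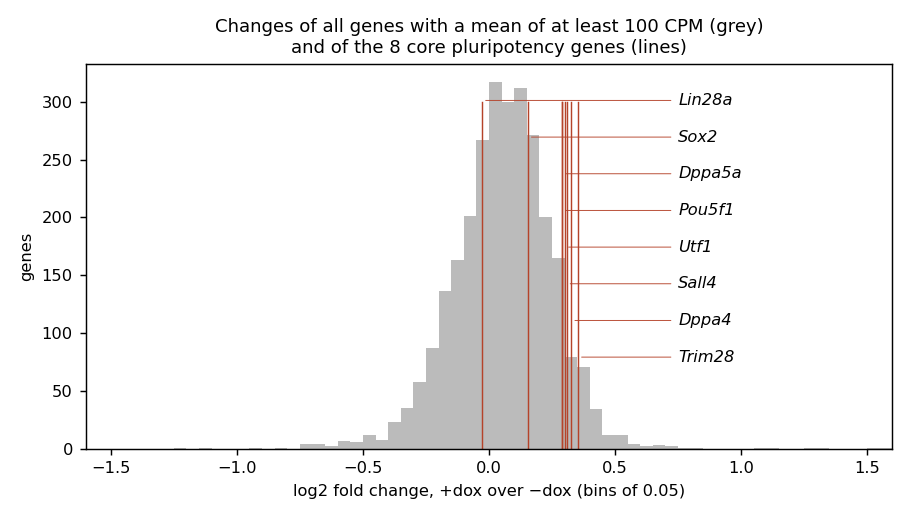
Number of genes by log2 fold change, in bins of 0.05, for the 2809 genes averaging 100 CPM or more, with lines at the 8 core pluripotency genes (Dppa4 itself averages less). Trim28, Dppa4, Sall4, Utf1, Pou5f1 and Dppa5a stand between 0.29 and 0.35, on the right shoulder of the distribution.

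As the most fibroblast RNA was in +dox replicate 1, the comparison was also made without that library. The median log2 fold change of the 8 genes was then 0.31. Without it edgeR called 2 of the 8, Dppa5a (log2 fold change 0.44, adjusted p-value 0.00265) and Trim28 (0.36, adjusted p-value 0.00699), where 5.07% of the genes tested were called. That comparison has 1 +dox library, which is assumed to vary like the pair of −dox libraries. Without +dox replicate 2 instead, the median log2 fold change of the 8 genes was 0.23, and that of Dppa5a was 0.12. Lin28a had a log2 fold change of -0.14 without +dox replicate 1 and of 0.08 without +dox replicate 2. Within replicate 1, where the fibroblast sum was 3.22-fold higher with dox, the median difference of the 8 genes was 0.26, and within replicate 2, where it was 1.26-fold higher, it was 0.32, both on the log2 scale.

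A comparison that does not depend on library size is that of each gene with the geometric mean of all 8 in the same library. The 8 genes together took 0.668% and 0.683% of the reads with dox and 0.573% and 0.572% without. Against this mean, Lin28a was lower with dox by 0.32 in replicate 1 and 0.22 in replicate 2 on the log2 scale, and Trim28 was higher by 0.10 and 0.11. As the other 7 genes had positive log2 fold changes, a gene with no change of its own comes out lower here. By CPM alone, Lin28a differed by -0.10 and 0.07. Sox2 differed by 0.01 in replicate 1 and by -0.20 in replicate 2. Pou5f1 differed by 0.06 and 0.02, Utf1 by 0.06 and 0.04 and Dppa5a by 0.03 and 0.04. These genes thus kept nearly the same ratio to the group in both replicates. Sall4 differed by 0.08 and 0.03, and Dppa4 by -0.02 and 0.17. No test was made of these ratios.

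The genes with the most similar profile were sought by the distance between log2 CPM values, centred on the mean of the 4 libraries, over 9970 genes of at least 10 CPM. Among those nearest to Pou5f1 were Ap2s1 (distance 0.0122), which encodes a subunit of the clathrin adaptor complex, and Pum3 (0.0199). Ap2s1 had 84.8 and 93.1 CPM with dox and 70.3 and 75.9 CPM without. Nearest to Sox2 were Trim24 (0.0134), Cul4b (0.021), a scaffold of ubiquitin ligases, and Tmem184c (0.0233). Those nearest to Sall4 were Plekhm1 (0.0283), Aen (0.0333), an exonuclease gene, and Snx11 (0.0358), a sorting nexin gene. None of the 8 was among the 3 nearest to Pou5f1, Sox2 or Sall4, the genes for which this was sought, and 4 libraries are too few to read more from a likeness.

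Genes related to the 8 by family or pathway, 105 tested genes in 9 lists, gave 3 calls in edgeR at an adjusted p-value under 0.01 (2.86%, against 0.599% of all genes). Among them, 1 was higher with dox and 2 lower, and the median log2 fold change of the 105 was 0.01. DESeq2 called 5 of them, against 1.87% of all genes. An unadjusted p-value under 0.05 was met by 24 of the 105, against 17.8% of all genes and 27.1% of those of at least 100 CPM, and the counts at this p-value in each list are to be read beside those shares.

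Targets with a composite Sox-Oct element were the list with the highest median, 0.23 over 8 genes, with 1 called by edgeR and 2 by DESeq2 (Spp1 and Zscan10). The edgeR call was Spp1, which encodes the secreted phosphoprotein osteopontin, at 412 and 402 CPM with dox and 245.5 and 288 CPM without (log2 fold change 0.61, standard error 0.10, edgeR adjusted p = 0.00667). In 6 of these 8 genes, which all averaged over 100 CPM, both +dox libraries were above both −dox libraries, against 38.9% of the genes at that level. Nanog, the homeobox gene of the same network, had 499 and 688 CPM with dox and 521 and 597.5 CPM without, with conditions that overlapped and a log2 fold change of 0.09 (edgeR adjusted p = 0.759).

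Among Dppa and related ES cell genes, 0 of 8 tested were called by edgeR, 3 had an unadjusted p-value under 0.05, all higher with dox, and DESeq2 called 1, Gdf3. Gdf3, a TGF-β family ligand gene, had 268 and 289.8 CPM with dox and 199 and 190.3 CPM without (log2 fold change 0.52, edgeR adjusted p = 0.0132). Dnmt3l, the cofactor of the de novo DNA methyltransferases, had a log2 fold change of 0.40 (edgeR adjusted p = 0.0455). Dppa2, the partner and neighbour of Dppa4, had 74.9 and 104 CPM with dox and 52.8 and 68.2 CPM without, with a log2 fold change of 0.57 (edgeR adjusted p = 0.0794), and its conditions did not overlap.

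Among paralogues of the 3 transcription factors, 1 gene was called by edgeR and it was lower with dox. Of 16 Sox genes, 1 was called, the endoderm gene Sox17, which fell to 1.199 and 1.71 CPM with dox from 7.66 and 9.64 CPM without (log2 fold change -2.57, edgeR adjusted p = 7.13e-04). Of 9 POU genes 0 were called in edgeR and DESeq2, and 2 had an unadjusted p-value under 0.05, both lower with dox. These were Pou3f1, a gene of the epiblast and the nervous system, at -0.49 and Pou6f1 at -0.52 on the log2 scale, where edgeR gave adjusted p = 0.0752 and adjusted p = 0.0956. Of 3 Sall genes 0 were called by either tool and 1 had an unadjusted p-value under 0.05, Sall3 (log2 fold change 0.51, edgeR adjusted p = 0.101). Sall1, the most abundant by CPM of the 3 paralogues, had 276 and 262 CPM with dox and 280.5 and 269 CPM without (log2 fold change -0.03, edgeR adjusted p = 0.896), and Sall2 had a log2 fold change of -0.40 with conditions that overlapped.

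**Figure D5:**
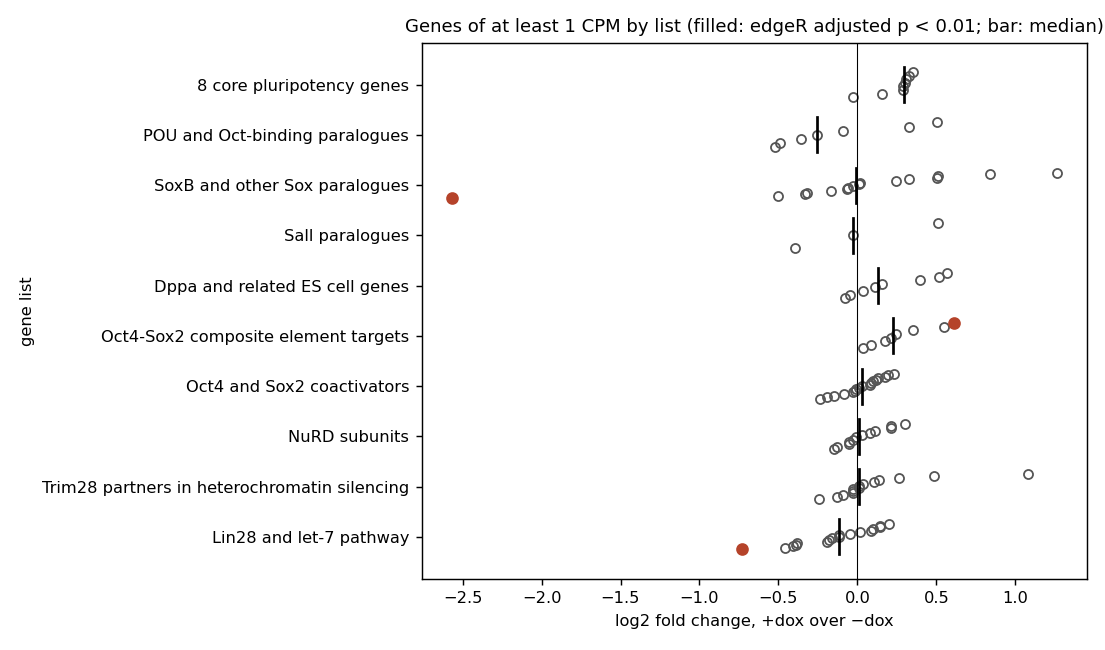
Log2 fold change of +dox over −dox for each gene of at least 1 CPM, by list, with filled points for genes with an edgeR adjusted p-value under 0.01 and bars at the medians. The 8 core pluripotency genes have a median of 0.30, the composite element targets 0.23 and the other lists between -0.26 and 0.13, and the 3 filled points are Sox17, Spp1 and Igf2bp2.

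The medians of the lists of chromatin partners were near 0. Of 12 NuRD subunits 0 were called by edgeR or DESeq2, and 1 had an unadjusted p-value under 0.05, with a median log2 fold change of 0.01. That gene was Mbd3, the methyl-CpG-binding domain subunit (0.21, edgeR adjusted p = 0.227), and Hdac1, a deacetylase subunit, had 0.30 (edgeR adjusted p = 0.281), with 70.2% of its 50-base stretches found elsewhere in mm9. Of 15 Trim28 partners 0 were called by either tool, with a median of 0.01. An unadjusted p-value under 0.05 was met by 3 of them (2 higher and 1 lower with dox). Zfp57, the KRAB zinc-finger gene that guards imprinted loci, had 366 and 484 CPM with dox and 275 and 332.5 CPM without (log2 fold change 0.49, edgeR adjusted p = 0.0692), and the histone chaperone gene Daxx had 0.26 (edgeR adjusted p = 0.167). Setdb1, the methyltransferase that Trim28 recruits, had 160.5 and 164.5 CPM with dox and 169 and 162 CPM without (log2 fold change -0.03, edgeR adjusted p = 0.916). Of 17 coactivators of Oct4 and Sox2 0 were called by either tool and 1 had an unadjusted p-value under 0.05, the acetyltransferase gene Crebbp (0.23, edgeR adjusted p = 0.206). Xpc, a DNA repair gene whose complex acts as a coactivator, had a log2 fold change of -0.24 (edgeR adjusted p = 0.287).

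In the Lin28 and let-7 list, 1 of 17 tested genes was called, and it was lower with dox. Igf2bp2, an mRNA-binding protein gene that let-7 is known to repress, fell to 113 and 116 CPM with dox from 182 and 198 CPM without (log2 fold change -0.73, standard error 0.09, edgeR adjusted p = 0.00199). In 9 of the 17 genes both +dox libraries were below both −dox libraries, where 23.7% of all genes were, and the median log2 fold change was -0.12. Lin28b, the paralogue of Lin28a, was lower by CPM than Lin28a, with 35.8 and 32.2 CPM with dox and 39.4 and 37.7 CPM without, and its log2 fold change was -0.18 (edgeR adjusted p = 0.528). Ctcf itself, which the transgene carries and whose reads hold both the endogenous and the S224E copies, had a log2 fold change of 0.13 (edgeR adjusted p = 0.475).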

How the data were processed

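Polyadenylated RNA of 2 +dox and 2 −dox libraries was analysed. Paired reads of 50 bases were trimmed (cutadapt) and mapped with TopHat2 against mm9 by the authors, who dropped PCR duplicates, assigned unique reads to exons with HOMER and deposited raw counts per gene, not normalized, in a table per replicate (versions not given in the sources used here). The tables were joined by symbol. Genes with at least 1 count in 1 library were tested with edgeR 4.0.16 (R 4.3.3; TMM, quasi-likelihood test, default settings, no block), with Benjamini-Hochberg adjustment and a threshold of 0.01. DESeq2 1.42.0 was the main alternative, beside other scalings, filters, tests, the replicate block and leaving out each library. Standard errors and 95% intervals were taken from the test statistic, and single-replicate differences use a prior count of 2. Intervals cover these libraries only. Libraries of 22899107 to 30206085 reads gave at least 1729 reads for each of the 8 genes. The 8 genes and all lists were chosen with earlier results of these data known. Named genes are the 8, Ctcf, Nanog, Dppa2, Lin28b, Sall1 and Setdb1, called list genes (otherwise the 2 with the lowest p-values of at least 1 CPM) and the 3 nearest profiles. Of the marker genes, Ttr, Tpbpa, Dab2, Nes and Pax6 are also named. ChIP-seq and Hi-C samples were not analysed here. A nearest profile and an octamer match are not reported here.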

Additional observations from a re-analysis of the deposited data

How the results depend on the processing

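The 8 genes gave 0 calls in edgeR, with 6 at an unadjusted p-value under 0.05. They gave 1 call in DESeq2, 1 in DESeq2 with the replicate number as a block (added after seeing the data), 1 at an adjusted p-value under 0.05, 4 in edgeR with the replicate block (Pou5f1, Sall4, Utf1 and Trim28, where 3.92% of all genes were called) and 0 to 2 when each library was left out. The 3 calls among the list genes became 5 in DESeq2, 5 in edgeR's likelihood ratio test, 8 in DESeq2 with the block, 12 in edgeR with the block, 6 at 0.05, 0 with adjusted deviances or filterByExpr and 0 to 15 with a library left out. Over all genes the 120 calls became 375 (DESeq2), 457 (likelihood ratio), 264 (DESeq2 with the block), 786 (edgeR with the block), 573 (at 0.05), 11 (filterByExpr, 15278 genes tested, with 3225 at an unadjusted p-value under 0.05), 0 (adjusted deviances, 3254 unadjusted) and 0 to 992 with a library left out. The count was 992 without +dox replicate 1, 877 without +dox replicate 2 and 0 without either −dox replicate (1753 and 1450 unadjusted), where in each case the lone library is assumed to vary like the pair of the other condition. Same-numbered libraries deviated together with a correlation of 0.196 across genes. Whether they shared a culture day is not given in the labels, so the block is an alternative only. The log2 fold change of Lin28a ran from -0.21 (without −dox replicate 2) to 0.18 (without −dox replicate 1) and was 0.08 without +dox replicate 2, in no case past the threshold. The other 7 genes had a positive log2 fold change under each of their 13 alternatives, with ranges of 0.12 to 0.44 for Dppa5a (without +dox replicate 2 and without +dox replicate 1) and 0.06 to 0.25 for Sox2 (without −dox replicate 1 and without −dox replicate 2). The cause of these differences was not tested. Depth was not limiting for the 8 genes, since counting error was at most 2.41%, and the number of libraries limits the precision.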

Other observations

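A primer pair that the study designed for ChIP-qPCR under the name Oct4 matched the gene measured here. The forward primer starts 16 bases after the start site of Pou5f1, in exon 1, on the plus strand, and the reverse primer matches the coding part of the same exon on the minus strand. The reverse primer also had an exact copy on chromosome 3 (chr3:129136607-129136627), where the forward primer had none.
Forward, chr17:35642993-35643011: TAGGTGAGCCGTCTTTCCA
Reverse, chr17:35643061-35643081: GTGAGAAGGCGAAGTCTGAAG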
